A study of Mus musculus with 12 samples.

Results

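Potassium channel genes were followed in neonatal mouse cardiac fibroblasts infected with *Sox17* and *Erg* retroviruses and in control fibroblasts. They were taken as the protein-coding genes of the bulk RNAseq table whose mouse symbol begins with Kcn, with 10 or more counts summed over the 12 libraries. Of the 94 such genes in a table of 35727, 79 met this minimum and 15 did not, and 3 of the 15 had no count in any library. By symbol, the 79 were 33 voltage-gated pore subunits, 12 auxiliary subunits of voltage-gated channels, 14 inward rectifiers, 9 two-pore channels, 8 calcium- or sodium-activated pore subunits and 3 beta subunits of the large-conductance calcium-activated (BK) channel.

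Potassium channels let potassium leave the cell along its gradient and so hold the membrane at a negative potential. In arterial endothelium, small- and intermediate-conductance calcium-activated channels and inward rectifiers pass hyperpolarization on to the smooth muscle, where BK, voltage-gated and ATP-sensitive channels oppose contraction. Cardiac fibroblasts are not excitable in the way cardiomyocytes are, but they express several of these channel families, and the voltage-gated A-type and G protein-activated channels are best known from cardiomyocytes.

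RNA was collected on Day 3, Day 7 and at 4 weeks from *Sox17*-*Erg* and from control cultures, with 2 libraries in each of the 6 groups. The fibroblasts came from pooled hearts of C57BL/6J mice no more than 3 days old, were kept in EGM2 medium per the labels, and in the study fibroblasts were selected for THY1 after removal of PECAM1-positive cells, a step added before the cells were characterized. The factors were carried by retroviruses built on the pMX backbone. The labels name the other cultures only as control, with descriptions that begin with PMX, so that whether they received an empty virus is not given in the sources used here. Nor do the labels say whether equal replicate numbers mark the same isolation of fibroblasts, so p-values measure the spread between these libraries.

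Totals per library lay between 19011635 and 41240449 gene counts. *Sox17* had 432 to 1040 CPM (counts scaled to the library's total and by TMM factors) in the *Sox17*-*Erg* libraries and at most 0.416 CPM in the control libraries, and *Erg* had 17.1 to 65.2 CPM against at most 2.27 CPM. All 10 cardiac fibroblast markers were detected, with summed levels of 16700 to 40300 CPM in control and 12800 to 42000 CPM in *Sox17*-*Erg* libraries. The endothelial gene *Cdh5* was at 14.3 and 8.08 CPM in control replicate 2 at Day 3 and Day 7, and between 0.230 and 0.910 CPM in the other 4 control libraries. In bulk RNA, fewer cells of a type and less RNA per cell cannot be told apart. The study's flow cytometry found PECAM1 and CDH5 together on a minority of Day 7 *Sox17*-*Erg* cells, so bulk values average over converted and other cells.

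Without TMM scaling, the Kcn genes summed to 276 to 343 CPM in the control libraries and to 166 to 245 CPM in the *Sox17*-*Erg* libraries, so the treatments did not overlap. The auxiliary subunit genes *Kcnab1* and *Kcne4* and the inward rectifier gene *Kcnj15* together held 51.7% to 72.5% of the Kcn counts of a library. Per kilobase of annotated exons, *Kcne4* had the highest mean level over the 6 control libraries at 17.5 CPM per kilobase, followed by *Kcnab1* at 11.1, *Kcnj15* at 6.45, *Kcnj5* at 5.35 and *Kcnk2* at 2.2. The control ranges of the first 3 overlapped, at 8.19 to 36.7, 9.40 to 16.6 and 2.66 to 13.7 CPM per kilobase, a spread that holds both replicates and the 3 time points. In *Sox17*-*Erg* libraries the order of the means over time was *Kcnab1* at 8.56, *Kcne4* at 5.57, *Kcnj15* at 4.77, *Kcnk6* at 3.37 and *Kcnk2* at 1.75 CPM per kilobase. There the ranges of *Kcnab1* (6.62 to 11.9), *Kcne4* (0.743 to 16.6) and *Kcnj15* (1.33 to 9.43) overlapped, and that of *Kcnab1* lay above those of *Kcnk6* (2.78 to 4.16) and *Kcnk2* (0.372 to 4.07). The order turned with time. In the Day 3 controls *Kcnj15* had the highest mean, at 13.7 and 10.2 CPM per kilobase, against 8.19 and 14.4 for *Kcne4*, with overlap. *Kcne4* led on Day 7 (12.2 and 36.7) and after 4 weeks (23.4 and 9.86), where its libraries lay on both sides of those of *Kcnab1* (16.6 and 11.5) at 4 weeks. In *Sox17*-*Erg* libraries *Kcnj15* was above *Kcnk6* on Day 3, at 5.59 and 9.43 against 4.02 and 2.82 CPM per kilobase, and below it after 4 weeks, at 1.71 and 1.33 against 2.78 and 3.51, without overlap at either time. Averaged over the 3 times, *Kcnj5* went from place 4 in control to place 21, at 0.200 CPM per kilobase, and *Kcnn3* from place 6, at 1.49 CPM per kilobase, to place 24, at 0.142.

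**Figure D1:**
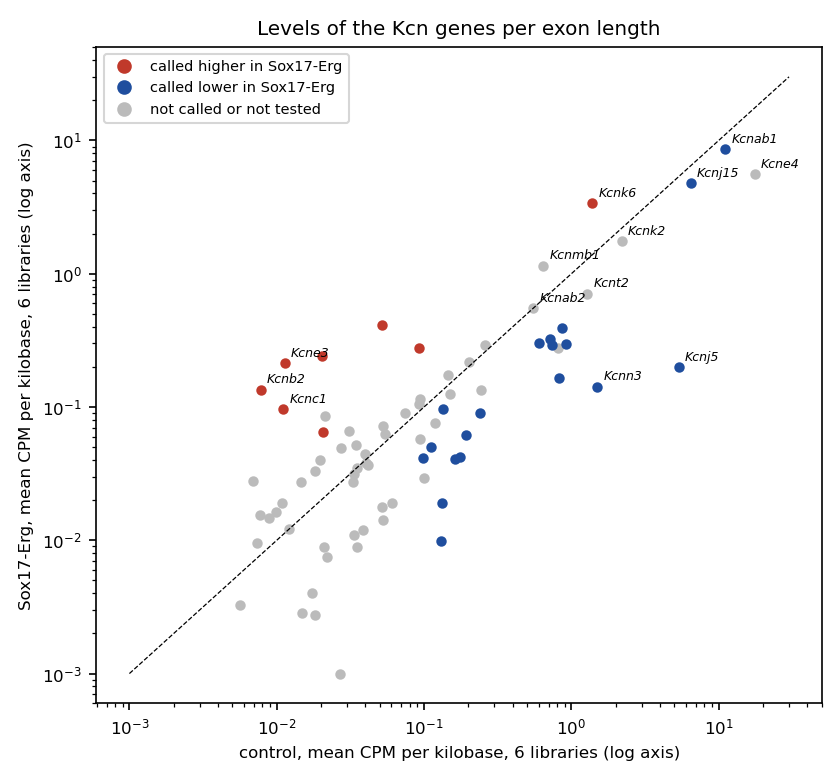
Mean CPM per kilobase of annotated exons of each of the 79 Kcn genes over the 6 control libraries (horizontal log axis) and the 6 *Sox17*-*Erg* libraries (vertical log axis), with the dashed line at equal levels. Red points are genes called higher and blue points genes called lower in *Sox17*-*Erg* at 1 or more time points, and *Kcnj5* and *Kcnn3* lie farthest below the line among the more highly expressed genes.

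A total of 48 Kcn genes passed edgeR's filter on low counts and could be tested, among 15506 genes, and the other 31 were too low. In 12 of the 27 genes called below, under 2 of the 6 libraries of one treatment were over the filter's level of 0.4 CPM, so these passed the filter through the treatment in which they were higher. Their number therefore describes the genes that passed and is no evidence on the family. A gene was called where edgeR's quasi-likelihood test gave a p under 0.05 after Benjamini-Hochberg adjustment over all tested genes. Every fold change is *Sox17*-*Erg* over control on the log2 scale with its standard error unless stated otherwise. That standard error is the size of the log2 fold change divided by the square root of the test's F statistic, so it restates the p-value.

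Fewer Kcn genes passed early than late. Day 3 had 2 of the 48 higher with *Sox17*-*Erg* and 3 lower, where 7.19% and 5.13% of all tested genes were. On Day 7 there were 10 in all, 5 in each direction, against 17.4% of all genes, 9.48% higher and 7.93% lower. By 4 weeks 8 were higher and 19 lower, against 11.9% and 11.0% of all genes. The 48 had a median log2 fold change of -0.41 on Day 3, of -0.09 on Day 7 and of -0.80 after 4 weeks, where all genes had 0.01, 0.006 and -0.014. Replicate numbers were taken to pair the libraries within a time point, which the labels do not give. The check described with the processing cannot settle it. A fit with the number as a block within each time point called 2 higher and 6 lower Kcn genes on Day 3. There it called 12.7% of all genes higher and 10.4% lower. On Day 7 it called 6 higher and 9 lower, against 13.8% and 13.3%. In that fit the 4-week counts were 10 higher and 20 lower, against 15.5% of all genes higher and another 15.5% lower.

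The 4-week counts depended on each of the 4 libraries of that time. The lower Kcn genes numbered 4 without *Sox17*-*Erg* replicate 1, 7 without control replicate 1, 9 without *Sox17*-*Erg* replicate 2 and 11 without control replicate 2. In the same fits 4.01%, 5.30%, 7.21% and 7.42% of all genes were lower. In the same order the higher Kcn genes numbered 4, 3, 5 and 5, against 6.5%, 7.22%, 8.66% and 8.27% of all genes. Calls over all genes thus dropped with each of these libraries too. At Day 3 no Kcn gene was called higher without either control replicate or without *Sox17*-*Erg* replicate 1, where 1.25% to 1.61% of all genes were. At Day 7, leaving out control replicate 2 gave 0 higher and 2 lower genes, against 4.91% and 3.64% of all genes, and leaving out *Sox17*-*Erg* replicate 1 gave 1 and 2, against 3.85% and 1.84%. Leaving out either control library of Day 3 or either *Sox17*-*Erg* library of 4 weeks gave 3 higher genes at Day 7, against 7.2% to 7.8% of all genes.

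Over the 3 time points, 27 of the 48 Kcn genes were called at 1 or more, 8 of them higher and 19 lower, where 31% of all genes were called, 16.7% higher and 14.6% lower. The 8 that were higher were *Kcnb2*, *Kcnk6*, *Kcnma1*, *Kcnc1*, *Kcnab3*, *Kcnj4*, *Kcne3* and *Kcnip1*. *Kcnb2* and *Kcnk6* were higher at all 3 time points, as were 3.59% of all genes. A total of 3, *Kcnj5* and *Kcnn3* among them, were lower at all 3, as were 2.27% of all genes. Each of the 27 genes was called at 4 weeks, and none was called in both directions. On Day 3 both *Sox17*-*Erg* libraries were above both control libraries for 12 of the 48 genes and below for 21, where 34.1% and 29.9% of all genes were. The counts were 13 and 17 on Day 7, against 29.0% and 28.8%, and 11 and 26 at 4 weeks, against 30.3% and 32.5%. At every time point together, both *Sox17*-*Erg* libraries were below both control libraries for 12 of the 48 genes and above them for 7. Such an arrangement by itself gives an exact two-sided permutation of the labels within time points its smallest possible p of 0.0093, so that p only restates how these 19 were found, and 28.3% of all genes were at it. That permutation sets any pairing of the libraries aside. With labels swapped only within same-numbered pairs, an alternative chosen after seeing the data, 22 Kcn genes reached the smallest possible exact p of 0.031, which did not pass after adjustment (adjusted p = 0.077) and was reached by 40.6% of all genes. Within 1 time point, 2 against 2 libraries can give no permutation p below 0.33.

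**Figure D2:**
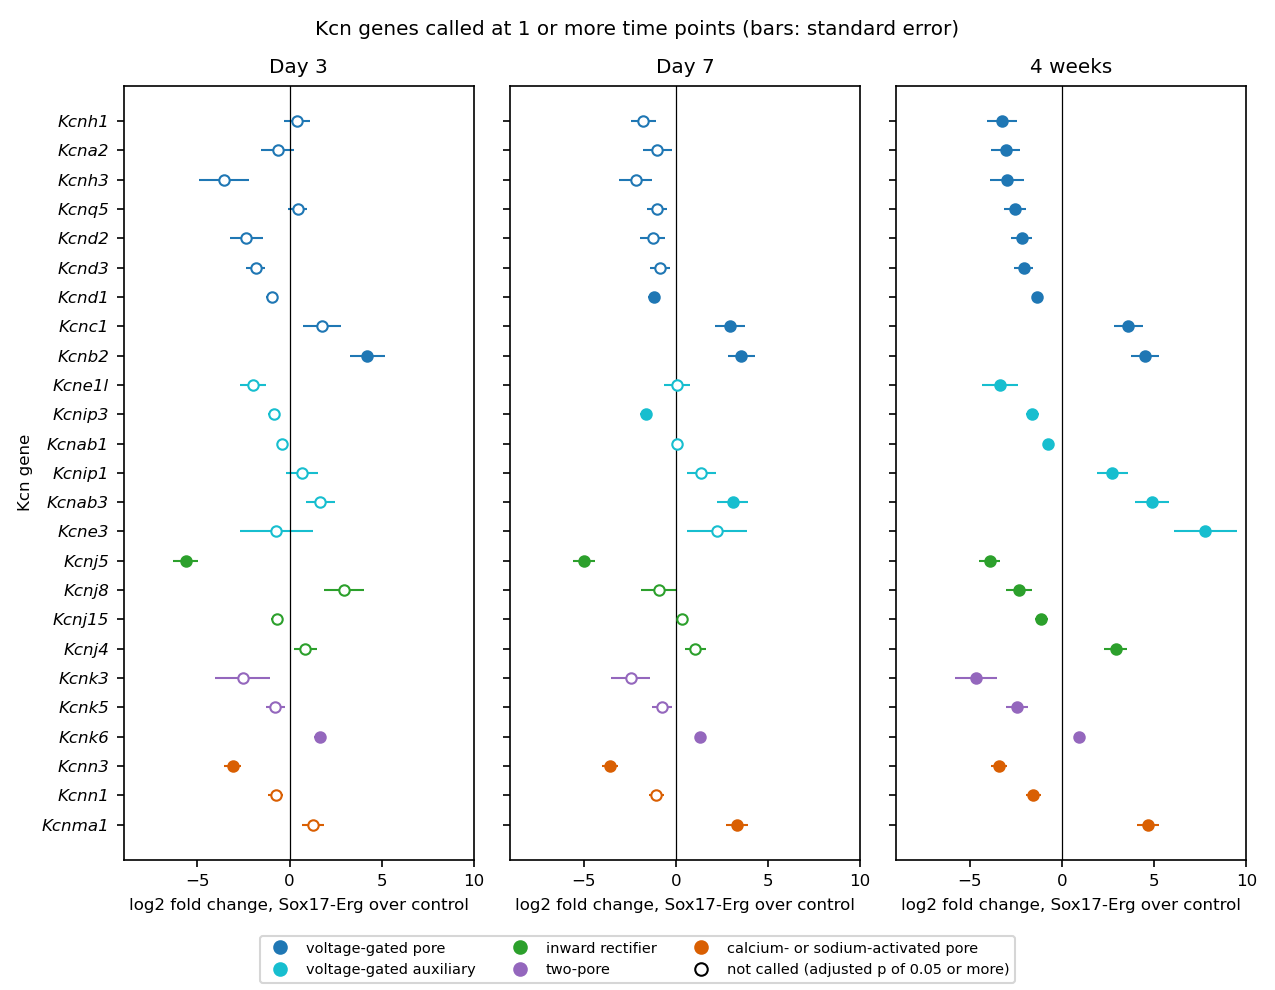
Log2 fold change of *Sox17*-*Erg* over control (horizontal axis, bars: standard error derived from the F statistic) at Day 3, Day 7 and 4 weeks for 25 of the 27 Kcn genes called at 1 or more time points (vertical axis), coloured by family. Filled points passed an adjusted p under 0.05, which were 4 of the 25 on Day 3, 9 on Day 7 and 25 after 4 weeks, and *Kcnj5* has the lowest value at Day 3 and at Day 7.

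Promoter sequences are shown for the 2 genes in each direction whose 4-week calls had the smallest adjusted p, among genes with 1 promoter entry in RefSeq (GRCm38.p6) that holds at most 30 bases of annotated exons. The 2 factors that were introduced belong to the SOX and ETS families, so the 250 bases before each start were searched on both strands for ACAATG and CCGGAA, core letters of the sites of these families, which do not overlap each other. Capitals mark a match, and each sequence is given 5′ to 3′ on the strand of its gene.
*Kcnj4*, higher, chr15:79505242-79505491, minus strand: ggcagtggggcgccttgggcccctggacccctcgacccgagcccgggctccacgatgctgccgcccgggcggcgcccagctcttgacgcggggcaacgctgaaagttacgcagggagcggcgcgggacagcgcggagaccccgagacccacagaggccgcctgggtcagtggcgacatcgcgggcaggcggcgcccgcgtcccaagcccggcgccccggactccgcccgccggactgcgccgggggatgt
*Kcnc1*, higher, chr7:46396218-46396467, plus strand: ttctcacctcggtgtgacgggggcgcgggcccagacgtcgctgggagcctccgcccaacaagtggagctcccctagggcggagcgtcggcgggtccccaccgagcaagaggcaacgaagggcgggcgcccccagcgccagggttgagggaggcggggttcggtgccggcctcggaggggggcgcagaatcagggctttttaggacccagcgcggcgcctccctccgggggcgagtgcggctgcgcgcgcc
*Kcnn3*, lower, chr3:89519914-89520163, plus strand: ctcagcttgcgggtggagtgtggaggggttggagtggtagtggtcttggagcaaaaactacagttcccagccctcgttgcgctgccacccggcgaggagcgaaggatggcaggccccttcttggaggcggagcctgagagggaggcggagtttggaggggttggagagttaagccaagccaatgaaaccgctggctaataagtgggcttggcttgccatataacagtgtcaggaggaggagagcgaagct
*Kcnj5*, lower, chr9:32344345-32344594, minus strand: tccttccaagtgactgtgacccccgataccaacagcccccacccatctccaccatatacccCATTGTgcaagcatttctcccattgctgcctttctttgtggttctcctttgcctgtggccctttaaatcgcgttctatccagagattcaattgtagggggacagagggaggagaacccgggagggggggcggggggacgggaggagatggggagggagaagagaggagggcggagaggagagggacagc
The *Kcnj4* and *Kcnc1* windows had a GC content of 77.2% and 74.4% and those of *Kcnn3* and *Kcnj5* were 58.8% and 58%, and *Kcnj5* alone of the 4 held a match, to the SOX letters on the opposite strand, at position -189 from its start. Over all RefSeq promoters of this length, 10.7% of 32851 windows held the SOX letters and 12% the ETS letters. Among the Kcn genes, 58 of 79 matched to 81 windows, of which 7 held the SOX letters and 4 the ETS letters. The SOX letters were in 1 of the 8 windows of higher genes and in 3 of the 20 windows of lower genes, and the ETS letters in 0 of both. A match is a match of letters and not a binding site, and its absence from this window says nothing of the factors.

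The calcium-activated channels moved in both directions. *Kcnn3* (ENSMUSG00000000794, chromosome 3, 89520164 to 89675132 in GRCm38), which encodes a small-conductance channel known for endothelium-dependent hyperpolarization, had 8.95 and 7.81 CPM in the Day 3 controls, 16.2 and 20.7 CPM in those of Day 7 and 28.8 and 11 CPM in those of 4 weeks. With *Sox17*-*Erg* it had 1.11 and 0.862, 1.32 and 1.80, and 1.70 and 2.07 CPM. Every *Sox17*-*Erg* library was below every control library. The log2 fold change of *Kcnn3* was -3.09 ± 0.45 on Day 3 (adjusted p = 0.005), -3.57 ± 0.43 on Day 7 (0.00093) and -3.40 ± 0.43 after 4 weeks (0.00067). These 3 calls held in each alternative fit at the same threshold and without each of the libraries in turn.

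*Kcnma1* (ENSMUSG00000063142, chromosome 14, 23289431 to 24014491), the pore subunit of the BK channel, went the other way. Controls held 0.327 and 0.555 CPM on Day 3, 0.346 and 0.241 CPM on Day 7 and 0.451 and 0.163 CPM after 4 weeks. With *Sox17*-*Erg* it had 1.52 and 0.646 CPM, then 3.72 and 2.24, then 10.1 and 6.52. All 6 *Sox17*-*Erg* libraries were above all 6 control libraries. The difference did not pass at Day 3 (1.29 ± 0.59, adjusted p = 0.18), and passed at Day 7 (3.33 ± 0.60, 0.0059) and at 4 weeks (4.66 ± 0.59, 0.00071). Without control replicate 2 of Day 7 the Day 7 value was 3.10 with an adjusted p of 0.050. Within *Sox17*-*Erg* cultures *Kcnma1* rose from Day 3 to 4 weeks by a log2 fold change of 2.95 ± 0.54 (adjusted p = 0.0047), and within control cultures the change was -0.42 ± 0.63 (0.66). The difference between these changes was 3.37 ± 0.83, which did not pass in the fit without a block (adjusted p = 0.066) and passed with the replicate block within time points (3.52, adjusted p = 0.036).

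The beta subunit gene *Kcnmb1*, whose product raises the calcium sensitivity of the BK channel in smooth muscle, had 7.5 and 4.3 CPM in the Day 3 controls, 1.5 and 0.362 CPM in those of Day 7 and 0.601 and 1.99 CPM in those of 4 weeks. In *Sox17*-*Erg* libraries it had 5.16 and 5.08, 6.73 and 2.33, and 5.59 and 4.07 CPM. The treatments overlapped at Day 3 and did not overlap at Day 7 or 4 weeks, where the log2 fold changes were 2.29 ± 0.75 (adjusted p = 0.067) and 1.94 ± 0.73 (0.088). With the replicate block within time points both passed, at 2.35 (0.019) and 2.07 (0.022). *Kcnmb4*, a beta subunit known mainly from neurons, was under 0.7 CPM in every library, with log2 fold changes between -1.13 and 0.25 that did not pass.

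Of the other small- and intermediate-conductance genes, *Kcnn1*, known mainly from neurons, had 4.18 and 5.77 CPM in control and 1.45 and 1.93 CPM in *Sox17*-*Erg* libraries at 4 weeks and was lower there by -1.55 ± 0.41 (adjusted p = 0.025). It was also lower at Day 7 with the replicate block within time points (-1.03, adjusted p = 0.020, against -1.05 and 0.12 without it). Its 4-week call was lost without control replicate 2 (adjusted p = 0.11) and without *Sox17*-*Erg* replicate 1 (0.15) or 2 (0.061). *Kcnn4*, the intermediate-conductance channel of endothelium, had between 0.276 and 0.800 CPM in control and between 0.0370 and 0.524 CPM in *Sox17*-*Erg* libraries, with overlap, and its values of -1.21 on Day 3, 0.05 on Day 7 and -1.34 after 4 weeks did not pass (adjusted p = 0.22, 0.97 and 0.20). *Kcnn2*, a small-conductance channel, held 29 counts over the 12 libraries and was not tested. The sodium-activated pore gene *Kcnt2* had a 4-week value of -1.15 with adjusted p = 0.057, and with the block within time points it was lower (-1.15, 0.0092).

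**Figure D3:**
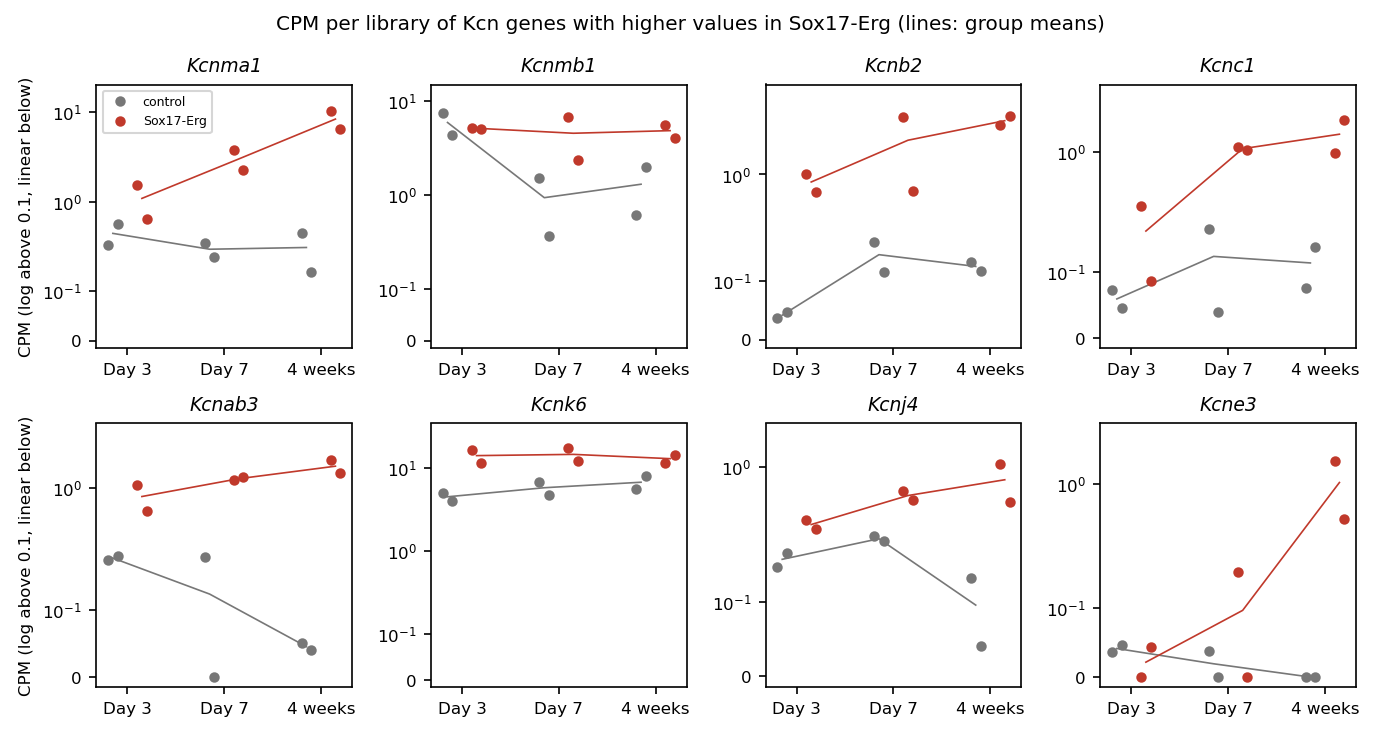
CPM of 8 Kcn genes with higher values in *Sox17*-*Erg* in each of the 12 libraries at Day 3, Day 7 and 4 weeks (vertical axis logarithmic above 0.1 CPM and linear below, lines through the means of 2 libraries, grey control and red *Sox17*-*Erg*). *Kcnma1* climbs to 10.1 and 6.52 CPM in *Sox17*-*Erg* at 4 weeks, *Kcnk6* stays between 11.5 and 17.3 CPM, and *Kcne3* is at 0 in both control libraries at 4 weeks.

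Several smooth muscle and mural cell markers were higher beside *Kcnma1* and *Kcnmb1*. Of 12 tested, 2 rose and 2 fell on Day 3, and 6 rose and 2 fell both on Day 7 and after 4 weeks, where 7.19%, 9.48% and 11.9% of all genes rose and 5.13%, 7.93% and 11.0% fell. Their summed level was 4060 to 4320 CPM in control and 5220 to 5370 CPM in *Sox17*-*Erg* libraries at Day 3, 1620 to 2190 against 3090 to 5480 CPM at Day 7, and 2260 to 3900 against 5490 to 5570 CPM at 4 weeks. *Myh11*, the smooth muscle myosin heavy chain, was 55.9 and 35.3 CPM in control and 278 and 223 CPM in *Sox17*-*Erg* libraries at 4 weeks (log2 fold change 2.46 ± 0.29, adjusted p = 0.00046), and no library was at 0. *Mylk* and *Des* were the 2 lower genes at Day 7 and 4 weeks. *Acta2*, *Tagln* and *Pdgfrb* made up most of the summed level, and none of them was called at 4 weeks (adjusted p = 0.10, 0.39 and 0.80). *Acta2* was higher at Day 7 (1.93 ± 0.52, 0.033). The part of such cells in the BK channel values was not tested.

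Among the inward rectifiers, *Kcnj5* (ENSMUSG00000032034, chromosome 9, 32314707 to 32344350) had the largest fall of any Kcn gene at Day 3 and at Day 7. It encodes a G protein-activated subunit best known from the acetylcholine-gated current of atrial cardiomyocytes. Controls held 23.4 and 22.9 CPM on Day 3, 36.9 and 29.1 CPM on Day 7 and 12.7 and 25.5 CPM after 4 weeks. *Sox17*-*Erg* libraries held 0.202 and 0.689, 0.441 and 1.80, and 1.2 and 1.3 CPM. No *Sox17*-*Erg* library was near the control range. The log2 fold change was -5.64 ± 0.67 (adjusted p = 0.0017), -4.97 ± 0.60 (0.00092) and -3.92 ± 0.58 (0.0015), and all 3 calls of *Kcnj5* held in each alternative fit at the same threshold and without each of the libraries in turn. *Kcnj3*, the partner of *Kcnj5* in that current, had 25 counts over the 12 libraries and was not tested.

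*Kcnj8* encodes the pore of the ATP-sensitive channel of vessels, which it forms with the sulfonylurea receptor encoded by *Abcc9*. At 4 weeks *Kcnj8* had 1.08 and 0.407 CPM in control and 0.106 and 0.185 CPM in *Sox17*-*Erg* libraries, a log2 fold change of -2.34 ± 0.70 (adjusted p = 0.040). At Day 3 it was at 0.0364 and 0 CPM against 0.202 and 0.172 CPM, the opposite order, which did not pass (2.95 ± 1.08, 0.11). The difference between the 4-week and Day 3 values, -5.29 ± 1.28, did not pass (adjusted p = 0.063). Within control cultures *Kcnj8* rose from Day 3 to 4 weeks by 4.94 ± 0.94 (adjusted p = 0.0061), on 1 count over both Day 3 libraries. The 4-week call of *Kcnj8* was lost with the replicate block within time points (-2.23, adjusted p = 0.068) and in 4 of the other 5 alternative fits, and among the leave-one-out fits only that without control replicate 2 of 4 weeks kept it. *Abcc9* had 21.9 and 10.2 CPM in control and 2.58 and 3.81 CPM in *Sox17*-*Erg* libraries at 4 weeks, and was lower by -2.33 ± 0.36 (adjusted p = 0.0018). At Day 3 it was at 1.16 and 1.48 CPM against 1.67 and 2.07 CPM (0.51 ± 0.38, 0.42).

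*Kcnj4*, a strong inward rectifier of heart and brain, had 0.150 and 0.0407 CPM in control and 1.06 and 0.556 CPM in *Sox17*-*Erg* libraries at 4 weeks, and was higher by 2.92 ± 0.62 (adjusted p = 0.0091). It was above control in all 4 *Sox17*-*Erg* libraries of Day 3 and Day 7 too, by 0.85 and 1.06, which did not pass (0.40 and 0.24). The call was lost without control replicate 2 (2.40, adjusted p = 0.056) and without *Sox17*-*Erg* replicate 1 of 4 weeks (2.38, 0.078). *Kcnj15*, an inward rectifier with high levels in these cells, was lower at 4 weeks, at 16.8 and 24.8 CPM in control and 10.8 and 8.37 CPM in *Sox17*-*Erg* libraries (-1.12 ± 0.35, 0.048), and the replicate block within time points ended this call (-1.10, 0.052). Its call was also lost with no filter on low counts, with the block over all libraries and without any 1 of 8 libraries. *Kcnj15* fell from Day 3 to 4 weeks in both treatments, with log2 fold changes of -1.86 ± 0.35 in control (adjusted p = 0.0057) and -2.31 ± 0.36 in *Sox17*-*Erg* cultures (0.0025). *Kcnj2*, the main inward rectifier of endothelium and ventricle, was at 0.364 to 0.614 CPM in control and 0.469 to 0.791 CPM in *Sox17*-*Erg* libraries. Its values of 0.72, 0.03 and 0.12 did not pass (adjusted p = 0.33, 0.98 and 0.89).

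The two-pore channels, which carry background currents, included a gene that was higher at all 3 time points. *Kcnk6* (ENSMUSG00000046410, chromosome 7, 29221926 to 29232515), a weakly rectifying channel found in vascular tissue, had 5.09 and 3.98 CPM in the Day 3 controls, 6.84 and 4.82 CPM in those of Day 7 and 5.61 and 7.97 CPM in those of 4 weeks. The *Sox17*-*Erg* libraries had 16.7 and 11.7, 17.3 and 12.1, and 11.5 and 14.6 CPM. The lowest *Sox17*-*Erg* library was above the highest control library. Log2 fold changes were 1.64 ± 0.30 (adjusted p = 0.012), 1.33 ± 0.29 (0.015) and 0.95 ± 0.29 (0.044). Leaving out any library of 4 weeks or either control library of Day 3 ended the 4-week call, with values of 0.71 to 1.22 and adjusted p of 0.052 to 0.24. The Day 3 call was lost without either control replicate (0.059 and 0.10) or *Sox17*-*Erg* replicate 1 (0.11), and the Day 7 call without control replicate 2 (0.098) or *Sox17*-*Erg* replicate 1 (0.12).

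*Kcnk5*, an alkali-activated channel, had 1.55 and 1.22 CPM in control and 0.212 and 0.296 CPM in *Sox17*-*Erg* libraries at 4 weeks and was lower by -2.43 ± 0.61 (adjusted p = 0.020). Its treatments overlapped at Day 3 and Day 7, and within *Sox17*-*Erg* cultures it fell by 2.72 ± 0.62 on the log2 scale from Day 3 to 4 weeks (adjusted p = 0.011). *Kcnk3*, an acid-sensitive channel of arterial smooth muscle and heart, held 70 counts over both control libraries and 2 over both *Sox17*-*Erg* libraries at 4 weeks, which is 30-fold higher in control (95% counting interval 8 to 252, adjusted p = 0.017). In CPM this was 1.23 and 0.854 against 0 and 0.0741. Both 4-week calls were lost without control replicate 1 (adjusted p = 0.089 and 0.082) and without *Sox17*-*Erg* replicate 1 (0.13 and 0.12), and that of *Kcnk5* also without *Sox17*-*Erg* replicate 2 (0.070).

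*Kcnk2*, a stretch-sensitive channel, changed with time more than with treatment. It had 20.2 and 24.2 CPM in control and 13.3 and 20.1 CPM in *Sox17*-*Erg* libraries at Day 3, and 2.51 and 5.08 against 1.84 and 2.37 CPM at 4 weeks. From Day 3 to 4 weeks it fell in both, with log2 fold changes of -2.56 ± 0.34 in control (adjusted p = 0.0013) and -2.99 ± 0.35 in *Sox17*-*Erg* cultures (0.00079). The difference between treatments at 4 weeks was -0.83 ± 0.34 (adjusted p = 0.12), and it passed with the replicate block within time points (-0.78, 0.038). *Kcnk1*, a weakly rectifying channel, had 30 counts in all and was not tested.

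**Figure D4:**
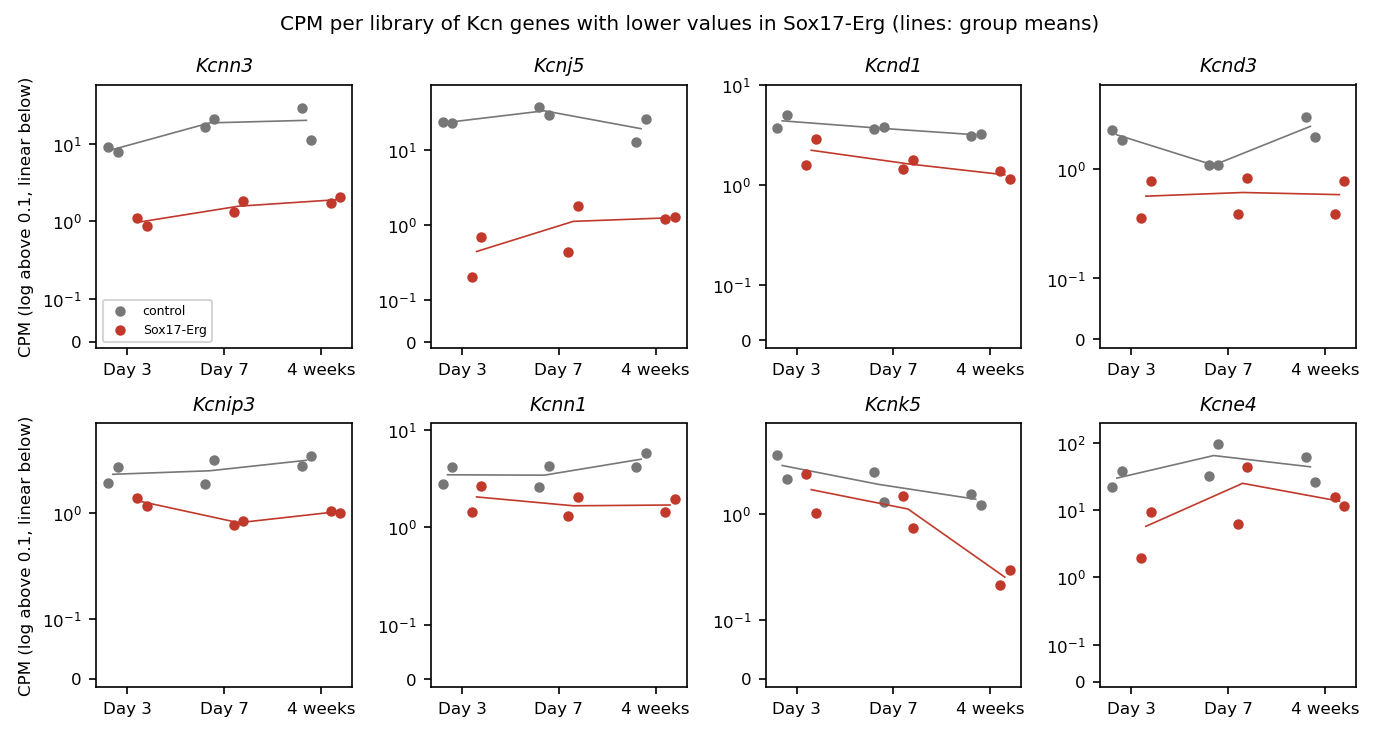
CPM of 8 Kcn genes with lower values in *Sox17*-*Erg* in each of the 12 libraries at Day 3, Day 7 and 4 weeks (vertical axis logarithmic above 0.1 CPM and linear below, lines through the means of 2 libraries, grey control and red *Sox17*-*Erg*). *Kcnj5* lies at 12.7 to 36.9 CPM in control and at 0.202 to 1.80 CPM in *Sox17*-*Erg* libraries, while *Kcnk5* separates at 4 weeks only and *Kcne4* overlaps at Day 7.

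The voltage-gated pore subunits were the largest family, with 19 tested genes. At 4 weeks 9 fell and 2 rose, where 11.0% of all genes fell and 11.9% rose. On Day 7 the counts were 2 and 2, against 7.93% and 9.48% of all genes, and on Day 3 they were 1 and 1, against 5.13% and 7.19%. Their median log2 fold change was -0.33 on Day 3, -0.85 on Day 7 and -1.12 after 4 weeks. Gene by gene, the difference between the 4-week and Day 3 effects of the 19 was positive for 10 and negative for 9, with a median of 0.08 on the log2 scale, and 0 were called, so these medians do not show effects that grew with time.

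*Kcnb2* (ENSMUSG00000092083, chromosome 1, 15287254 to 15723750), a delayed rectifier, had 0.0364 and 0.0462 CPM in the Day 3 controls, 0.230 and 0.121 CPM in those of Day 7 and 0.150 and 0.122 CPM in those of 4 weeks. *Sox17*-*Erg* libraries had 1.01 and 0.689, 3.50 and 0.703, and 2.90 and 3.52 CPM, all above every control library. At Day 3 the *Sox17*-*Erg* libraries held 36 counts and the control libraries 2, which is 20.6-fold higher (95% counting interval 5.30 to 176, adjusted p = 0.025). The log2 fold change of *Kcnb2* was 3.56 ± 0.75 at Day 7 (adjusted p = 0.012) and 4.49 ± 0.76 at 4 weeks (0.0031). The 4-week call held without each library, and the Day 7 call was lost without control replicate 2 (3.19, adjusted p = 0.088) or *Sox17*-*Erg* replicate 1 (1.97, 0.093). The Day 3 call was lost without either control replicate (0.14) or *Sox17*-*Erg* replicate 1 (0.15). *Kcnc1*, a fast-gating channel of rapidly firing neurons, had 0.0402 to 0.230 CPM in control libraries of Day 7 and 4 weeks and 0.991 to 1.85 CPM in *Sox17*-*Erg* libraries of these times. It was higher by 2.94 ± 0.80 at Day 7 (adjusted p = 0.034) and by 3.60 ± 0.80 at 4 weeks (0.011), and within *Sox17*-*Erg* cultures it rose from Day 3 to 4 weeks (2.70 ± 0.77, 0.027). Its 4-week call was lost without control replicate 1 (3.09, adjusted p = 0.10) or *Sox17*-*Erg* replicate 2 (3.05, 0.065), and its Day 7 call without 7 of the libraries.

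The A-type channels of the Kv4 group, which carry the transient outward current of cardiomyocytes and neurons, were all 3 lower at 4 weeks. *Kcnd1* had 3.13 and 3.25 CPM in control and 1.38 and 1.15 CPM in *Sox17*-*Erg* libraries at 4 weeks (-1.33 ± 0.32, adjusted p = 0.017), and was also lower at Day 7 (-1.19 ± 0.32, 0.033). At Day 3 its value of -0.97 did not pass (0.076), and passed with the replicate block within time points (-1.02, 0.032). *Kcnd2* had 2.81 and 1.3 CPM in control and 0.389 and 0.519 CPM in *Sox17*-*Erg* libraries at 4 weeks (-2.18 ± 0.58, 0.026). *Kcnd2* rose from Day 3 to 4 weeks in control cultures (2.98 ± 0.62, adjusted p = 0.009) and in *Sox17*-*Erg* cultures (3.16 ± 0.85, 0.021), where Day 3 held 2 counts over both libraries. *Kcnd3* had 2.96 and 1.95 CPM against 0.389 and 0.778 CPM at 4 weeks (-2.07 ± 0.52, adjusted p = 0.020). For these 3 genes no *Sox17*-*Erg* library overlapped control at its own time point. Without control replicate 1 of 4 weeks, or without *Sox17*-*Erg* replicate 1, none of the 3 was called at that time, at adjusted p of 0.062 to 0.22. *Kcnd1* was lost at 4 weeks without any of the 4 libraries of that time and on Day 7 without any of the 4 of that time, and *Kcnd2* was also lost without *Sox17*-*Erg* replicate 2 (0.085).

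*Kcnq5*, whose channel relaxes arterial smooth muscle, had 0.651 and 1.5 CPM in control and 0.248 and 0.111 CPM in *Sox17*-*Erg* libraries at 4 weeks and was lower by -2.53 ± 0.60 (adjusted p = 0.015). At Day 3 *Kcnq5* was at 1.46 and 0.925 CPM in control and 1.57 and 1.68 CPM in *Sox17*-*Erg* libraries, and it fell from there to 4 weeks within *Sox17*-*Erg* cultures by 3.14 ± 0.60 on the log2 scale (adjusted p = 0.0057). The difference of its 4-week and Day 3 effects, -2.97 ± 0.79, did not pass (0.084). The call of *Kcnq5* was lost without replicate 2 of either treatment (adjusted p = 0.085 and 0.090), and in a fit of 4 weeks alone (-2.51, 0.063). *Kcnq1*, the pore of the slow cardiac delayed rectifier, held 52 counts in all and was not tested.

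*Kcna2*, a Shaker-type channel, had 4.71 and 3.25 CPM in control and 0.177 and 0.778 CPM in *Sox17*-*Erg* libraries at 4 weeks and was lower by -3.06 ± 0.79 (adjusted p = 0.022). It rose from Day 3 to 4 weeks in control cultures by 3.11 ± 0.80 (0.020), and within *Sox17*-*Erg* cultures the value was 0.68 ± 0.88 (0.60). The ether-a-go-go genes *Kcnh1* and *Kcnh3*, known from brain, were lower at 4 weeks by -3.27 ± 0.81 (adjusted p = 0.019) and -3.00 ± 0.92 (0.044), at control levels of 0.601 and 0.895 CPM and of 1.15 and 1.26 CPM. *Kcna5*, a channel of atrium and vascular smooth muscle, had 2.80 and 2.25 CPM in control and 0.193 and 0.791 CPM in *Sox17*-*Erg* libraries at Day 7, a value of -2.42 ± 0.73 that did not pass (adjusted p = 0.051) and passed with the replicate block within time points (-2.55, 0.029). *Kcnh1* also passed at Day 7 in that fit (-1.75, adjusted p = 0.047, against -1.77 and 0.11 without it). Without *Sox17*-*Erg* replicate 1 of 4 weeks the calls of *Kcna2*, *Kcnh1* and *Kcnh3* were lost (adjusted p = 0.12, 0.14 and 0.11). *Kcna2* was not called either without control replicate 1 (0.096), nor *Kcnh1* without control replicate 2 (0.070), and *Kcnh3* was called without only 1 of the 12 libraries. The call of *Kcnh3* was also lost with no filter on low counts (-2.98, adjusted p = 0.054) and in a fit of 4 weeks alone (-2.98, 0.11).

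The auxiliary subunits of voltage-gated channels had 3 higher and 3 lower genes among 9 tested at 4 weeks, where 11.9% and 11.0% of all genes were called, and a median log2 fold change of -0.25. The 3 higher ones, *Kcnab3*, *Kcne3* and *Kcnip1*, were over the filter's level in 0 control libraries and so passed it through the *Sox17*-*Erg* libraries. *Kcnab1*, a Shaker beta subunit and the Kcn gene with the most counts, had 143 and 99.2 CPM in control and 85.4 and 59.2 CPM in *Sox17*-*Erg* libraries at 4 weeks (-0.74 ± 0.23, adjusted p = 0.044). With the replicate block within time points *Kcnab1* was also lower at Day 3 (-0.42, 0.042, against -0.42 and 0.25 without it). Leaving out any 1 of 8 libraries ended its 4-week call, as did the block over all libraries and a fit of 4 weeks alone, and the value was -0.46 without control replicate 1 of 4 weeks (adjusted p = 0.28). *Kcnab3*, another Shaker beta subunit, had 0.0501 and 0.0407 CPM in control and 1.70 and 1.33 CPM in *Sox17*-*Erg* libraries at 4 weeks. These were 3 counts against 84, a ratio of 32.7 (95% counting interval 10.8 to 162, adjusted p = 0.0055). At Day 7 *Kcnab3* was higher by 3.09 ± 0.83 (0.033), with control libraries at 0.269 and 0 CPM. Its 4-week call was at an adjusted p of 0.050 without control replicate 1, and its Day 7 call was lost without 9 of the libraries. *Kcnab2*, the third Shaker beta subunit, had a 4-week value of 1.28 ± 0.72 (adjusted p = 0.24), which passed with the replicate block within time points (1.52, 0.027).

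Among the KCNE subunits, small proteins that set the gating of voltage-gated pores, *Kcne3* was at 0 in both control libraries and at 1.52 and 0.519 CPM in *Sox17*-*Erg* libraries at 4 weeks. Set against a floor of 3 counts over the control group, *Kcne3* was at least 22.2-fold higher (57 counts, adjusted p = 0.013). It was at no more than 0.193 CPM in every library of the earlier times. Without either control replicate or without *Sox17*-*Erg* replicate 1 of 4 weeks the call was lost (adjusted p = 0.083, 0.052 and 0.080). *Kcne4*, an inhibitory subunit and one of the 3 Kcn genes with the highest control levels per length, had 21.8 and 38.2 CPM in control and 1.97 and 9.52 CPM in *Sox17*-*Erg* libraries at Day 3, 32.5 and 97.5 against 6.18 and 44.0 CPM at Day 7, and 62.2 and 26.2 against 15.5 and 11.7 CPM at 4 weeks. Replicates of *Kcne4* differed widely, and its log2 fold changes of -2.36 ± 0.99, -1.38 ± 0.93 and -1.70 ± 0.94 did not pass (adjusted p = 0.15, 0.34 and 0.23). With the replicate block within time points all 3 passed, at -2.58 (0.0083), -1.73 (0.018) and -1.60 (0.021). *Kcne1l* held 15 counts in control and 1 in *Sox17*-*Erg* libraries at 4 weeks, a ratio of 12.8 (95% counting interval 1.98 to 541, adjusted p = 0.040), and its call was lost without 10 of the libraries and with DESeq2.

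The calcium-binding Kv channel-interacting proteins modulate A-type channels. *Kcnip3*, which also acts as a transcriptional repressor, had 2.76 and 3.42 CPM in control and 1.03 and 1 CPM in *Sox17*-*Erg* libraries at 4 weeks and was lower there by -1.60 ± 0.34 (adjusted p = 0.0089). It was also lower at Day 7, by -1.62 ± 0.34 (0.013), and its Day 3 value of -0.85 did not pass (0.13). *Kcnip1* had 0.0501 and 0.122 CPM against 0.425 and 0.704 CPM at 4 weeks and was higher by 2.74 ± 0.82 (adjusted p = 0.041). The 4-week call of *Kcnip3* was lost without *Sox17*-*Erg* replicate 1 (0.058), its Day 7 call without control replicate 2 (0.085) or *Sox17*-*Erg* replicate 1 (0.11), and the call of *Kcnip1* without 10 of the libraries and in 4 of 6 alternative fits.

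Cardiomyocyte and mesothelial markers moved beside the genes that were lower. Of 12 cardiomyocyte markers tested, 2 were lower on Day 3, 4 on Day 7 and 9 after 4 weeks, where 5.13%, 7.93% and 11.0% of all genes were, and 0 were higher. Their summed level was 910 to 1560 CPM in control and 343 to 428 CPM in *Sox17*-*Erg* libraries at Day 3, 665 to 906 against 375 to 479 CPM at Day 7, and 1100 to 1390 against 691 to 693 CPM at 4 weeks. *Tnnt2* made up most of these sums. *Myh6*, the cardiomyocyte myosin heavy chain, was detected in every library, at 82.5 and 135 CPM in control and 7.89 and 16.5 CPM in *Sox17*-*Erg* libraries at 4 weeks. Of 8 epicardial and mesothelial markers, 7 were tested, of which 1 was lower on Day 3, 4 on Day 7 and all 7 after 4 weeks, with sums of 925 to 1470 CPM in control and 167 to 263 CPM in *Sox17*-*Erg* libraries at 4 weeks. The part of such cells in the values of *Kcnj5*, *Kcnd2*, *Kcnd3* or the other lower genes was not tested.

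Of 11 endothelial markers tested, 4, 5 and 7 were higher at Day 3, Day 7 and 4 weeks and 0, 0 and 1 lower. Over all genes 7.19%, 9.48% and 11.9% were higher and 5.13%, 7.93% and 11.0% lower at these times. These are the shares to set beside each count of this paragraph. Of 8 Schwann cell and neuron markers tested, 1 was lower at Day 3 and 1 higher and 1 lower at 4 weeks. The 4-week counts are near the shares of all genes. Sums of this list were 36.7 to 43.5 CPM in control and 19 to 21.4 CPM in *Sox17*-*Erg* libraries at 4 weeks, and *Rbfox3* was at no more than 0.0768 CPM. Of 10 fibroblast markers, 1 was lower and 0 higher on Day 3, 3 were lower and 1 higher on Day 7, and 4 were lower and 1 higher at 4 weeks. Beside *Kcnab3*, *Kcnc1* and *Kcnb2*, the part of any such cells was not tested.

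None of 10 macrophage and leukocyte markers was called, but their summed level varied between libraries. It was 281 to 422 CPM in control and 278 to 312 CPM in *Sox17*-*Erg* libraries on Day 3, and 845 to 1260 against 258 to 434 CPM on Day 7, without overlap. All 10 markers had negative Day 7 log2 fold changes, from -1.68 to -0.86. After 4 weeks replicate 1 was far below replicate 2 in both treatments, at 50.1 against 403 CPM in control and 64 against 315 CPM in *Sox17*-*Erg* libraries. *Lyz2*, a lysozyme of macrophages, made up most of these sums, and no marker was at 0 in any library. The part of such cells in the Day 7 and 4-week values of the Kcn genes was not tested.

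**Figure D5:**
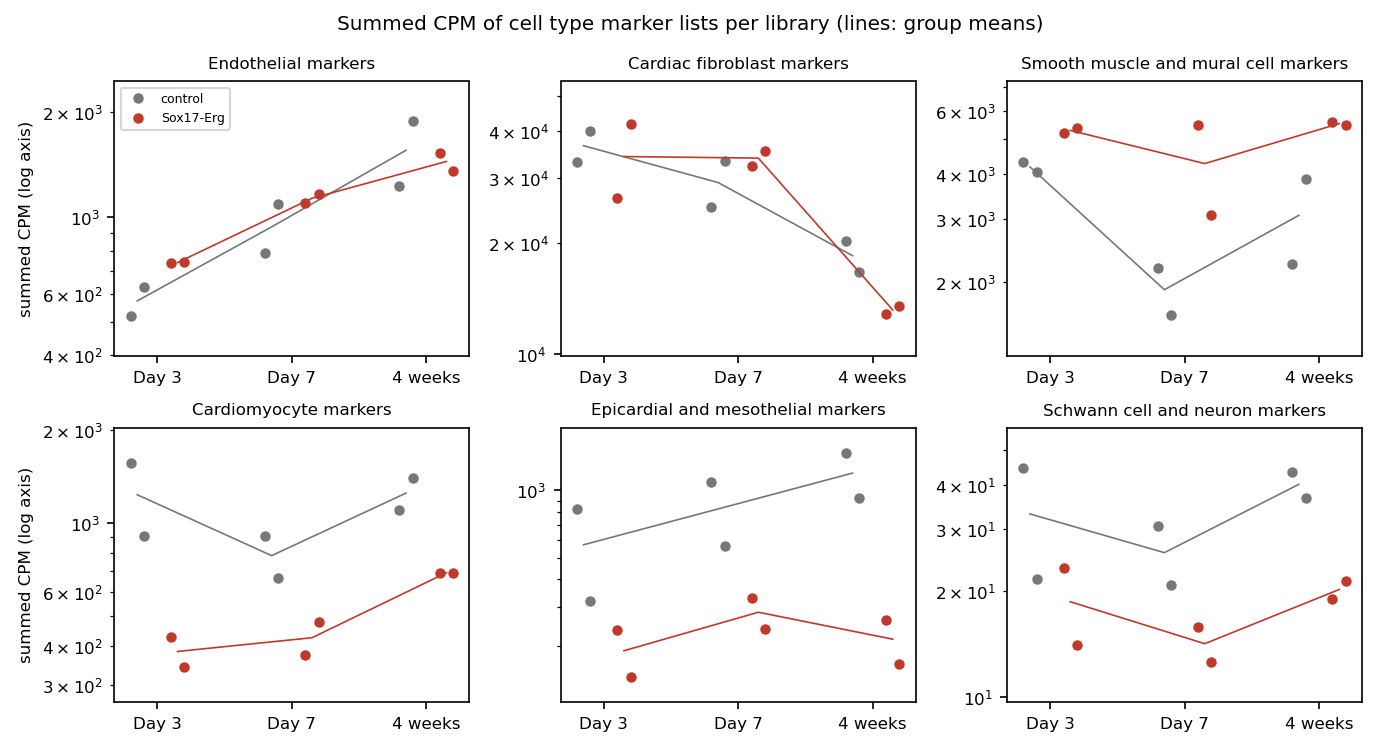
Summed CPM of 6 lists of cell type markers (log axis) in each of the 12 libraries at Day 3, Day 7 and 4 weeks, with lines through the means of 2 libraries (grey control, red *Sox17*-*Erg*). Cardiomyocyte and epicardial and mesothelial sums are lower in every *Sox17*-*Erg* library than in the control libraries of its time, and smooth muscle and mural cell sums are higher. Endothelial sums overlap at 4 weeks, at 1220 to 1890 CPM in control and 1360 to 1530 CPM in *Sox17*-*Erg* libraries. *Eng* is their largest part there, at 968 and 1500 CPM in control and 576 and 536 CPM in *Sox17*-*Erg* libraries.

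Changes with time within a treatment were tested between Day 3 and 4 weeks. In control cultures 4 Kcn genes were higher at 4 weeks and 2 lower, where 13.9% and 12.6% of all genes were. Higher were *Kcna2*, *Kcnd2*, *Kcnj8* and *Kcnn3* (1.25 ± 0.38, adjusted p = 0.040), and lower were *Kcnj15* and *Kcnk2*. Within *Sox17*-*Erg* cultures 5 rose and 6 fell, where 15.1% and 15.6% of all genes were. Higher were *Kcnc1*, *Kcnd2*, *Kcne3*, *Kcnma1* and the sodium-activated pore gene *Kcnt1*, and lower were *Kcnh1*, *Kcnj15*, *Kcnk2*, *Kcnk5*, *Kcnk7* and *Kcnq5*. Without control replicate 1 of 4 weeks no Kcn gene was called higher in control, where 6.07% of all genes were. A gene called within one treatment only is not shown to differ from the other.

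The effect of *Sox17*-*Erg* at 4 weeks differed from that at Day 3 for 0 of the 48 Kcn genes by edgeR's quasi-likelihood test, where 3.21% of all genes were called, 2.22% higher and 0.987% lower. At an unadjusted p under 0.05 there were 8 of the 48, or 16.7%, near the 16.9% of all genes. The DESeq2 Wald test called 2, where it called 4.46% of all genes with a larger and 2.35% with a smaller effect. These were *Kcnma1* with a larger effect at 4 weeks (3.42, adjusted p = 0.0062) and *Kcnq5* with a more negative one (-2.97, 0.048), and *Kcnma1* was also called with the replicate block over all libraries (3.54, 0.027).

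Genes that act beside potassium channels were followed in 4 lists. The sodium pump, which builds the potassium gradient, and its FXYD regulators had 10 tested genes, of which 3 were lower on Day 3, 4 on Day 7 and 3 after 4 weeks, and 0 were higher. Over all genes 5.13%, 7.93% and 11.0% were lower and 7.19%, 9.48% and 11.9% higher at these times, the shares to set beside each count of the 4 lists. *Fxyd1*, a regulator of the pump in heart and muscle, was lower at all 3 time points and had 17 and 17.9 CPM in control and 1.63 and 2.78 CPM in *Sox17*-*Erg* libraries at 4 weeks (-2.98 ± 0.40, adjusted p = 0.001). The pump's beta subunit gene *Atp1b1* was lower at Day 7 and 4 weeks, at 4 weeks by -1.53 ± 0.37 (0.016). *Fxyd6*, another regulator of the pump, was lower at Day 3 and Day 7. Summed levels of this list were 1320 to 1460 CPM in control and 884 to 1020 CPM in *Sox17*-*Erg* libraries at 4 weeks. Of 7 cation-chloride cotransporter genes tested, *Slc12a2* and *Slc12a4* were higher at Day 7, by 0.57 ± 0.15 (adjusted p = 0.034) and 0.50 ± 0.11 (0.017), and 0 were called at the other times.

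Of 9 tested partners and potassium channel subunits outside the Kcn names, 3 were lower at 4 weeks and 0 were called before. These were *Abcc9* and the genes of the intracellular cation channels *Tmem38a* (-0.63 ± 0.20, adjusted p = 0.049) and *Tmem38b* (-1.13 ± 0.22, 0.0062). Of 15 calcium entry and release channel genes tested, 2 fell and 0 rose on Day 3, 4 fell and 2 rose on Day 7, and 5 fell and 2 rose after 4 weeks, where 5.13%, 7.93% and 11.0% of all genes fell and 7.19%, 9.48% and 11.9% rose. *Itpr1*, a calcium release channel, and *Stim1*, the sensor that opens store-operated channels, were lower at all 3 time points, at 4 weeks by -1.29 ± 0.25 (adjusted p = 0.0057) and -1.20 ± 0.30 (0.019). *Trpc6*, a receptor-operated channel of smooth muscle, was higher at Day 7 (3.45 ± 0.78, 0.016) and 4 weeks (3.14 ± 0.70, 0.011), at 2.62 and 2.81 CPM in *Sox17*-*Erg* and 0.150 and 0.488 CPM in control libraries at 4 weeks. *Orai2*, *Orai3* and *Trpc4* were lower at 4 weeks and *Orai1* and *Orai2* at Day 7, while *Itpr2* was higher at Day 7 and *Itpr3* at 4 weeks.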

How the data were processed

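Stranded mRNA libraries were prepared with a Kapa kit and sequenced as paired-end reads. Per the submitters' processing notes and the study's methods, reads were demultiplexed with bcl2fastq 2.20.0, trimmed for high GC content with BBDuk and quantified with Salmon on mm10. The Salmon version, annotation and strand setting are not given in the sources used here. The authors deposited estimated counts per Ensembl gene, already whole numbers and not scaled for library size. Where strand is not used, a gene and its antisense partner cannot be told apart. For *Kcnma1* 5.985% of the exon length is shared with a gene on the opposite strand, the most among genes called against control. For *Kcnk2* this share is 12.219%, for *Kcnmb4* up to 20.848% and for the untested *Kcnj3* 31.083%. Salmon can split reads between near-identical transcripts, and for *Kcnk6* 3.04% of the 31-base words occur in another gene, more than for any other called Kcn gene.

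Symbols and positions were taken from GENCODE M21 (GRCm38) for 35422 of 35727 genes. The fit used edgeR 4.0.16 in R 4.3.3, with TMM scaling, filterByExpr at 10 counts per library and 15 in total, and its quasi-likelihood model with 1 mean per group (6 groups, 6 residual degrees of freedom), and p-values were Benjamini-Hochberg adjusted over all 15506 tested genes. Samples were grouped by treatment and time from the labels. Single genes were also tested by exact permutation of the treatment labels within time points (216 relabellings of log2 CPM with a prior count of 2) and, added after seeing the data, within same-numbered pairs (64 relabellings). Intervals of ratios between counts are exact at 95%, and with the floor of 3 counts cover counting error only. Replicates of a group correlated by 0.969 to 0.979 across genes, which are not independent replicates, and differed far beyond counting error (chi-square per degree of freedom of at least 27.4), so that depth alone does not set the precision. The test was tested on simulated data with known changes.

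Equal replicate numbers come from the sample titles. The deviations of each library from its group mean were correlated across genes. Those of same-numbered *Sox17*-*Erg* and control libraries correlated by 0.19 at Day 3, 0.30 at Day 7 and 0.17 at 4 weeks. Same-numbered Day 3 and Day 7 libraries correlated by 0.17 in control and 0.22 in *Sox17*-*Erg* cultures, and either with 4 weeks by -0.11 to -0.05. The check therefore does not single out pairs within a time point, and taking the numbers to pair libraries there is an assumption. Alternatives were DESeq2 1.42.0 (its Wald test and its size factors), no filter, an adjusted p under 0.01, a fit of each time point alone, blocks by replicate number, across all libraries or within each time point, and leaving out each library. The Kcn genes and all lists were chosen with earlier results of these data known. Genes were named when called in *Sox17*-*Erg* against control at any time or in the difference of effects, when known from vessels, smooth muscle or fibroblasts, when among the 5 highest levels per kilobase, when among the 3 smallest adjusted p between times in a direction, or when a called gene of a pathway list, and *Kcnt2*, *Kcnt1*, *Kcnk7* and *Kcnj3* were added after their values were seen. No reads were mapped again, and the other experiments of the study were not analysed here. Some genes that fall under this rule are counted but not reported by name here.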

Additional observations from a re-analysis of the deposited data

How the results depend on the processing

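An adjusted p under 0.01 left 0 higher Kcn genes at Day 3, 1 higher and 2 lower at Day 7, and 4 higher and 3 lower at 4 weeks, and between 4 weeks and Day 3 it left 2 higher in control and 1 higher and 3 lower in *Sox17*-*Erg* cultures, where it called 1.96% to 7.25% of all genes. A fit of Day 7 alone called 1 higher and 2 lower, against 4.18% and 3.29% of all genes, and ended 7 of the 10 Day 7 calls, those of *Kcnab3*, *Kcnb2*, *Kcnc1*, *Kcnd1*, *Kcnip3* and *Kcnk6* among them. With the replicate block within each time point, 6 were lower at Day 3 and 9 at Day 7. This fit called 10.4% and 13.3% of all genes lower there, against 5.13% and 7.93% without the block. Over the 3 times the block added 13 Kcn calls and ended those of *Kcnj8* and *Kcnj15* at 4 weeks. Calls over all genes rose too, in both directions at each time. The pairing as a block over all libraries, and within time points, called 1 Kcn gene with a larger effect at 4 weeks than at Day 3, and DESeq2 called 1 larger and 1 smaller. The replicate block over all libraries left the other counts within 1.5 times.

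Leaving out each library gave 0 to 2 higher and 2 to 4 lower genes at Day 3, 0 to 6 and 2 to 6 at Day 7, and 3 to 8 and 4 to 17 at 4 weeks. Over all genes these were 1.25% to 6.83% and 0.41% to 6.19%, 3.85% to 8.49% and 1.84% to 7.99%, and 6.5% to 11.7% and 4.01% to 10.6%. Differences of effect stayed at 0 to 0. Between 4 weeks and Day 3 the ranges were 0 to 7 higher and 1 to 5 lower in control, and 1 to 7 and 3 to 7 in *Sox17*-*Erg* cultures, against 5.64% to 14.1%, 4.93% to 12.3%, 7.69% to 16.4% and 5% to 15.1% of all genes. In control the higher genes fell to 2 and 1 without control replicates 1 and 2 of Day 3 and to 0 without control replicate 1 of 4 weeks, and rose to 7 without either *Sox17*-*Erg* library of Day 7. The lower ones rose to 4 without either control library of Day 7 and to 5 without control replicate 2 of 4 weeks, and fell to 1 without control replicate 1. In *Sox17*-*Erg* cultures 2, 1, 2 and 2 were higher without replicates 1 and 2 of Day 3 and 1 and 2 of 4 weeks, and 3 were lower without replicate 1 of either time. An arm left with 1 library was assumed to vary like the other groups.

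Of the 42 calls of single Kcn genes against control, 8 held in every alternative at the same threshold and without each library, those of *Kcnj5* and *Kcnn3* at all 3 times and those of *Kcnb2* and *Kcnma1* at 4 weeks. None of the 42 changed direction. Leave-one-out values were followed for 105 values of single genes, not for every tested Kcn gene. Among these, the values that did not pass and whose sign depended on 1 library ranged as follows. At Day 3 they were -2.13 to 0.01 for *Kcna2*, -0.38 to 0.26 for *Kcnab2*, -3.30 to 0.03 for *Kcne3*, -0.65 to 1.01 for *Kcnh1* and -0.58 to 0.25 for *Kcnmb1*. At Day 7 they were -0.24 to 0.28 for *Kcnab1*, -0.20 to 0.28 for *Kcne1l*, -2.34 to 4.61 for *Kcne3*, -0.02 to 0.84 for *Kcnj15*, -0.41 to 0.38 for *Kcnj2*, -0.02 to 0.25 for *Kcnk2* and -0.34 to 0.56 for *Kcnn4*. At 4 weeks they were -0.08 to 0.33 for *Kcnj2* and -0.56 to 0.73 for *Kcnmb4*. The causes were not tested. With 2 libraries a group, genes near 0.1 CPM rest on few counts, and a change in them that was not called may be missed at this depth. The median 4-week value of the 48 genes was -0.80 also with *Kcne3* at its bound.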
